A study of Mus musculus with 11 samples.

Results

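The circadian clock genes Arntl, Npas2, Clock, Per1, Per2, Per3, Cry1, Nr1d1, Nr1d2 and Dbp were taken by symbol from the per-mouse expression tables, and all 10 had a value among the 15453 genes listed. Epididymal white adipose tissue (eWAT) was measured by SAGE (serial analysis of gene expression, which counts short transcript tags) on the SOLiD platform in 6 wildtype (WT) mice and in 5 mice that inherited an inactivated Mest allele from the father (pKO). All 11 were C57BL/6 males (C57BL/6J in the study's methods) aged 16 weeks that had been fed a high fat diet from week 8, and their tissue was sampled once. The pKO allele lacks Mest exon 3 in every tissue, after deletion by a Cre transgene active in the early embryo. Mest is imprinted and read from the paternal copy, so these mice carry a germline loss from conception and do not model a loss in fat cells alone. The mice lived under a fixed light and dark cycle, and the time of day at which each was killed is not given in the sources used here.

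The mammalian clock is a feedback loop of transcription. Arntl (BMAL1) pairs with Clock or its paralog Npas2 and switches on genes that carry E-box motifs, among them the Per and Cry genes, Nr1d1, Nr1d2 and Dbp. PER and CRY proteins then block that activator, while NR1D1 and NR1D2 (REV-ERB alpha and beta) bind ROR response elements and repress Arntl, Npas2, Clock and Cry1. In peripheral tissues of mice, fat included, Nr1d1, Dbp and the Per genes therefore peak during the light phase or near its end, and Arntl, Npas2, Clock and Cry1 peak late in the night or at dawn. Mice killed at different hours would be high in one set and low in the other, and the question put to these data was whether the mice lay along such an axis.

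Each value is the number of tags next to the 3′-most NlaIII site (CATG) of a transcript, divided by the size factor of the library, and is called here a normalized tag. The sites expected from the GENCODE transcripts on GRCm38 are printed below because they are the stretch of each clock mRNA expected to have been counted, with the NlaIII site in capitals and followed by 22 bases, 5′ to 3′.
Arntl: CATGtggatatttcttatactaattg
Npas2: CATGattccgaagattggattttcct
Clock: CATGcacagctttaacgtaaaatcac
Per1: CATGgagtccctggtgctgcccctca
Per2: CATGcgcaaaccaaacgtaccttcac
Per3: CATGggggtcatacccagtggaaact
Cry1: CATGtaatcaagtgcataggcctctg
Nr1d1: CATGctcccatcctcccctatttaaa
Nr1d2: CATGttaaccctgactttatgtttca
Dbp: CATGttggggaacccatccatccaac
All 10 sites lay in the last exon and in the 3′ untranslated region, and none of the 10 tags was the last tag of another annotated gene. The Nr1d1 site at chr11:98768010-98768035 (minus strand) lay inside Thra, which runs on the opposite strand, and the Dbp site at chr7:45710086-45710111 (plus strand) lay inside Sphk2, also on the opposite strand. The Per3 site at chr4:151003965-151003990 (minus strand) lay within the span of Camta1 on the same strand. How the authors assigned tags at overlapping genes is not given in the sources used here.

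Tags per library ran from 9659740 to 14825727 (WT) and from 11320342 to 14626803 (pKO), with WT mouse 6 the shallowest. Mest averaged 25107 ± 2672 normalized tags (SD, n = 6) in the WT libraries against 1663 ± 566 (SD, n = 5) in those of pKO, although SAGE tags stand at the 3′ end and not in the deleted exon. The 6 adipocyte markers (Adipoq, Plin1, Fabp4, Lep, Cidec, Lipe) summed to between 661772 and 1070050 normalized tags in WT mice and between 704408 and 1082910 in pKO mice. Most of this sum was Fabp4, with a mean of 655817 in WT and 698530 in pKO mice. The 6 macrophage markers summed to between 1989 and 3254 in WT and between 1696 and 2879 in pKO mice. Of the 5 epididymis markers only 2 were listed, with a sum that ran from 0 to 56.0 normalized tags among WT and from 0 to 54.1 among pKO mice. Because whole tissue was measured, fewer cells of a type and less RNA per cell cannot be told apart.

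Among the activators, Arntl had the highest mean of the 10 clock genes, 471 normalized tags over all mice, where SAGE counts a single tag a transcript whatever its length. Arntl (chr7:113207465-113314126, plus strand) ranged from 351 to 479 normalized tags in WT mice with a median of 423, and was 594, 520, 519, 451 and 574 in pKO mice 1 to 5. The WT mean was 420 ± 41.6 (SD, n = 6) and the pKO mean 532 ± 55.9 (SD, n = 5), a log2 difference of 0.34 (standard error 0.12) on the log2(value + 1) scale. Only WT mouse 5 and pKO mouse 4 kept the ranges from being apart, since 4 of the pKO values lay above every WT value. The exact permutation test over all assignments of mice to genotypes gave p = 0.0065 for Arntl. After Benjamini-Hochberg adjustment over all 15453 genes, however, limma gave an adjusted p of 0.42.

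Npas2 (chr1:39193731-39363236, plus strand), the paralog that can stand in for CLOCK, had a median of 35.3 normalized tags in WT mice (18.4 to 43.7) and was 34.3, 51.6, 61.1, 45.01 and 48.1 in pKO mice 1 to 5. Its ranges overlapped because pKO mouse 1 lay within the WT values, and the log2 difference was 0.50 (standard error 0.24, exact permutation p = 0.048, limma adjusted p = 0.53). Clock (chr5:76209868-76304792, minus strand), the partner of BMAL1, had a median of 240.2 in WT mice (219.9 to 294) and was 219, 270.5, 255, 196 and 157 in pKO mice 1 to 5. Clock was lowest in pKO mouse 5, the ranges overlapped, and the log2 difference of -0.19 (standard error 0.16, exact permutation p = 0.24) was within the spread between mice.

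Of the period and cryptochrome repressors, Per2 had the largest difference between genotypes and the fewest tags. Per2 (chr1:91415982-91459324, minus strand) ranged from 18.3 to 38.6 normalized tags in WT mice with a median of 26.9, and was 18.9, 16.0, 4.07, 30.0 and 9.21 in pKO mice 1 to 5. The pKO mice 2, 3 and 5 lay below every WT mouse, while pKO mouse 4 lay inside the WT range. The means were 28.3 ± 7.70 (SD, n = 6) and 15.6 ± 9.90 (SD, n = 5), a log2 difference of -1.02 (standard error 0.40, exact permutation p = 0.035, limma adjusted p = 0.45). Only 4 to 40 raw tags stood behind each Per2 value, so counting alone gives a coefficient of variation of 20.7% at its mean count. The measured value was 27.2% among WT and 63.3% among pKO mice.

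Per1 (chr11:69095217-69109960, plus strand), which also responds quickly to glucocorticoids, had a median of 80.5 in WT mice (53.2 to 132) and was 87.6, 52.7, 76.3, 60.02 and 60.4 in pKO mice 1 to 5. The highest Per1 value was that of WT mouse 3, and the groups overlapped (log2 difference -0.28, standard error 0.23, exact permutation p = 0.25). Per3 (chr4:151003652-151044665, minus strand), a weaker member of the repressor family, had a median of 83.0 in WT mice (61.4 to 132) and was 83.3, 32.1, 91.6, 114 and 107 in pKO mice 1 to 5. WT mouse 6 was the highest and pKO mouse 2 the lowest of all 11, and the genotypes overlapped throughout (log2 difference -0.09, standard error 0.30). Cry1 (chr10:85131700-85185064, minus strand), the cryptochrome whose peak comes late in the night, had a median of 91.0 in WT mice (57.0 to 133) and was 85.8, 88.2, 109, 96.2 and 60.4 in pKO mice 1 to 5. WT mice 3 and 6 were the lowest in Cry1, and the log2 difference was 0.02 (standard error 0.24), with a sign that turned under total-count scaling (-0.01).

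The nuclear receptor Nr1d1 (chr11:98767932-98775333, minus strand) had the largest within-genotype standard deviation of log2(value + 1), 0.71, among the members with a mean above 50 normalized tags. In WT mice 1 to 6 it was at 257, 169, 310.2, 138, 431 and 551 normalized tags, and in pKO mice 1 to 5 at 610, 193, 461, 464 and 468. The highest WT mouse had 3.99 times the lowest, the highest pKO mouse 3.17 times the lowest (3.55 times for Per3), and the genotypes overlapped. The means were 309 ± 158 (SD, n = 6) and 439 ± 151 (SD, n = 5), a log2 difference of 0.57 (standard error 0.36, exact permutation p = 0.21). Counting error at its mean count is a coefficient of variation of 5.13%, against a measured 51.1% among WT mice. Nr1d2 (chr14:18204054-18239127, minus strand), its close relative with the same targets, was steadier, with a median of 116 in WT mice (87.0 to 155) and 121, 77.9, 138, 111 and 117 in pKO mice 1 to 5. WT mouse 6 was again the highest and pKO mouse 2 the lowest.

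Dbp (chr7:45705088-45710203, plus strand) is an output of the loop, a transcription factor that carries the rhythm to metabolic genes through D-box motifs. In WT mice 1 to 6 it was at 358, 308, 341, 303, 346 and 741 normalized tags, and in pKO mice 1 to 5 at 328, 319, 359, 395 and 521. A single mouse, WT 6, stood at 741 while the other 5 WT mice lay between 303 and 358, and the pKO values ran from 319 to 521. The log2 difference between genotypes was -0.00028 (standard error 0.22), and it was 0.19 without WT mouse 6.

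**Figure D1:**
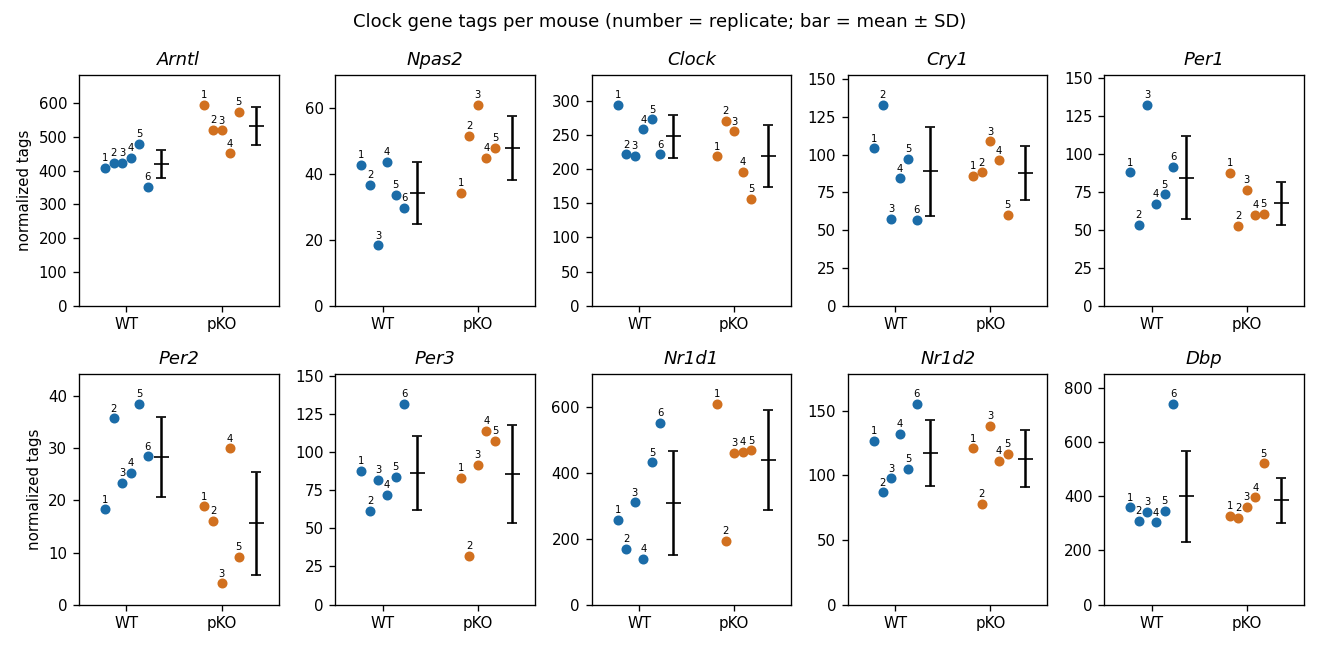
Normalized tags of the 10 clock genes in each mouse, with 1 panel a gene, WT in blue, pKO in orange and the replicate number above each point. The black bars are the mean ± SD of 6 WT and 5 pKO mice, each axis starts at 0, and WT mouse 6 is the highest WT mouse for Per3, Nr1d1, Nr1d2 and Dbp.

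No clock gene was called different between genotypes by limma, which called 5 of 15453 genes (0.0324%) with the adjusted p held to 0.1 or less and a genotype mean of 50 or more required. Of the 10 members, 8 reached that mean and could be called, while Npas2 and Per2 did not. At an unadjusted p of at most 0.05, which 9.55% of all genes reached, Arntl was higher in pKO mice (4.2% of all genes were higher) and Per2 was lower (5.35% were lower). No member had genotype ranges that were apart, as 1.24% of all genes did. edgeR and DESeq2 on the recovered tag counts also called 0 of the 10. Over the members the median log2 difference was -0.03, beside -0.0025 over all genes. Some markers of other cells also reached the unadjusted threshold between genotypes, with no call. The 4 mesothelial markers summed to between 538 and 740 normalized tags in WT and between 734 and 1310 in pKO mice, with 2 of 4 (Krt19 and Msln) higher at an unadjusted p of at most 0.05. At that threshold 1 of 5 endothelial markers (Kdr) was higher, and 2 of 6 macrophage markers (Itgax and Cd14) were lower. The other endothelial markers did not reach it, with Cdh5 higher (log2 difference 0.38) and Pecam1 (-0.39), Tek (-0.23) and Emcn (-0.20) lower. Their part in the clock gene differences was not tested.

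A further list held 18 symbols of clock and clock output genes, 17 of them with a value. The symbol without a value, Ciart, names the same gene as Gm129, which had a value. The list gave 0 calls between genotypes, with 2 genes higher and 0 lower in pKO mice at an unadjusted p of at most 0.05. Both belong to the PAR bZIP family of Dbp. Hlf averaged 112 ± 11.3 (SD, n = 6) in WT mice against 150.3 ± 14.1 (SD, n = 5) with pKO, a log2 difference of 0.42 (standard error 0.13, limma adjusted p = 0.37), and its ranges did not overlap. Tef averaged 1291 ± 120.04 (SD, n = 6) in WT mice against 1605 ± 296 (SD, n = 5) with pKO, a log2 difference of 0.30 (standard error 0.13, limma adjusted p = 0.51). The other measured genes of the list, among them the repressors Cry2, Nfil3 and Bhlhe40, did not reach an unadjusted p of 0.05.

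The spread of each clock gene within genotype was then set beside that of genes at a similar level. The standard deviation of log2(value + 1) within genotype was 0.71 for Nr1d1, larger than in 94.4% of the 3794 genes with a mean within 2-fold of its own. Per3 (83.7%), Per2 (83.4%) and Dbp (75.1%) were also in the upper part of their own sets. Per1 (55.8%), Cry1 (65.6%), Nr1d2 (43.1%), Npas2 (42.6%) and Clock (34.1%) lay nearer the middle. At the other end Arntl, with a standard deviation of 0.15, was more variable than only 8.40% of the 3558 genes near its mean. A gene of the loop with one of the widest spreads and a gene with one of the narrowest were found in the same 11 mice.

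To ask whether genes of opposite phase moved against each other, every value was centred on the mean of its genotype and Arntl was taken as the reference. Dbp had the most negative Pearson correlation with Arntl among the members, r = -0.51 over 11 mice (Spearman rho = -0.46). The exact permutation test over the 86400 orders of mice within genotype gave p = 0.13 for this pair, and 0.69 after adjustment over all 15452 other genes. In the 6 WT mice alone r was -0.83 (exact permutation p = 0.078), and the 5 pKO mice were under the minimum of 6 set for a correlation. Among the pKO mice the highest Dbp (521, mouse 5) came with the second highest Arntl (574), and the lowest Arntl (451, mouse 4) with a Dbp of 395. Leaving out WT mouse 6 and pKO mouse 4, the farthest from the Arntl median, turned r to 0.21, and leaving out WT mouse 6 alone gave 0.058. The negative relation of Arntl and Dbp thus rested on WT mouse 6, which had the lowest Arntl (351) and the highest Dbp (741) of all mice.

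The other members showed weaker relations with Arntl. The repressors Per3, Nr1d2, Nr1d1, Per2 and Per1 had r of -0.29, -0.25, -0.10, -0.10 and -0.01. Its partners and its phase mates Clock, Npas2 and Cry1 had r of 0.07, -0.05 and 0.12. Exact permutation p-values of these 8 ran from 0.42 to 0.97, and the adjusted values from 0.83 to 0.996. In limma with genotype as a term, 0 of 15452 genes (0%) were called as associated with Arntl, and none of the 9 other members was. At an unadjusted p of at most 0.05 limma gave 0 of these members, against 4.63% of all genes in the positive and 3.91% in the negative direction, and edgeR also called 0 genes. In the list of further clock genes Nampt, the NAD salvage enzyme, was positive with Arntl (r = 0.73) and Csnk1e, a kinase of PER proteins, was negative (r = -0.59), each with an adjusted p of 0.58 in limma.

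**Figure D2:**
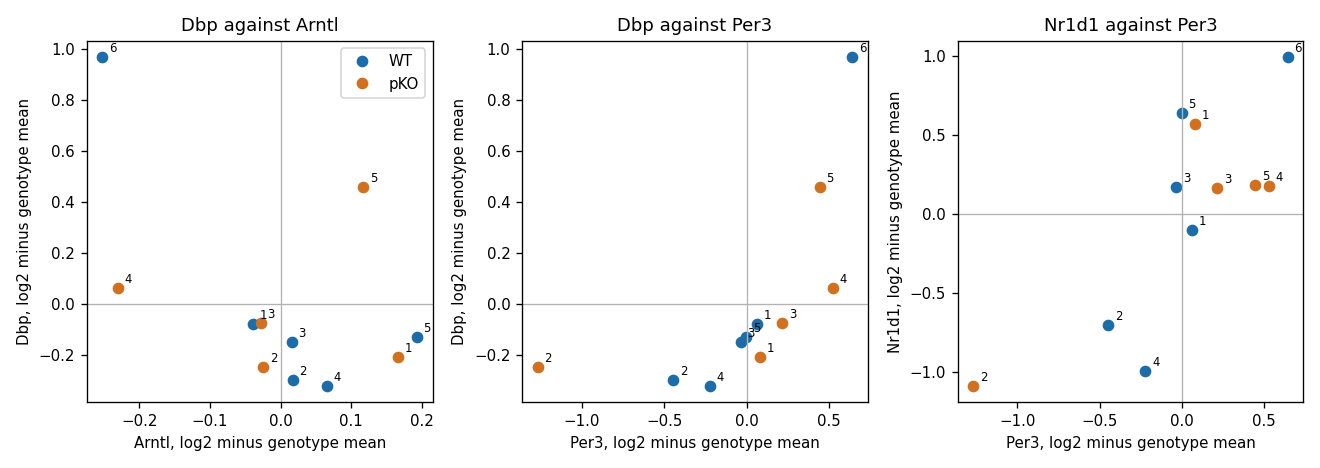
Centred log2(value + 1) of Dbp against Arntl, Dbp against Per3 and Nr1d1 against Per3 in each mouse, WT in blue and pKO in orange with replicate numbers, and lines at the genotype means. WT mouse 6 stands alone at the upper left of the Dbp and Arntl panel (r = -0.51, and 0.058 without it), while in the other panels the mice run from lower left to upper right (r = 0.66 and 0.79).

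Some of the members that peak in the light phase, Per3, Dbp and Nr1d1 above all, moved together. Per3 and Dbp had r = 0.66 and rho = 0.90 over 11 mice (exact permutation p = 0.0056 for r and 0.00016 for rho). The p for rho was not adjusted for the 45 pairs of members. Of all genes, 14.5% had a permutation p of at most 0.05 for r with Dbp. Within the 6 WT mice r was 0.93 (exact permutation p = 0.0069), and without pKO mouse 2 and WT mouse 6, the farthest from the Per3 median, r was 0.70. Adjusted over all 15452 genes other than Dbp, the permutation p of this pair was 0.19, and Per3 ranked 497 of 15452 genes in positive r with Dbp. The further clock list did not share this pattern, with a median r of -0.11 with Dbp over its 17 measured genes. At an unadjusted p of at most 0.05 in limma, 1 was positive with Dbp (Csnk1e, r = 0.75) and 1 negative (Nampt, r = -0.72). Tef and Hlf, of the same family as Dbp, had r of -0.18 and -0.11 with it.

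Per3 and Nr1d1 had r = 0.79 and rho = 0.74 (exact permutation p = 0.0059 and 0.013), and r = 0.83 in the WT mice alone (exact permutation p = 0.029). Per3 ranked 75 of 15452 genes in closeness to Nr1d1, with a permutation p of 0.65 after adjustment. Of all genes, 6.43% had a permutation p of at most 0.05 for r with Nr1d1. Without pKO mouse 2 and WT mouse 6 the Per3 and Nr1d1 relation fell to r = 0.41, so part of it rested on the lowest and the highest mouse. Dbp and Nr1d1 had r = 0.63 and rho = 0.66 (exact permutation p = 0.046 and 0.036), and r = 0.75 in WT mice alone. After adjustment the permutation p for r was 0.34 with Dbp and 0.77 with Nr1d1 as the reference. It was r = 0.59 without pKO mouse 2 and WT mouse 4, the farthest from the Nr1d1 median, and r = 0.42 without WT mouse 6.

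In limma with Dbp as the reference, 8 of 15452 genes (0.0518%) were called, all with a negative slope and none of them a member, and the number was 92 without WT mouse 6. At an unadjusted p of at most 0.05, Nr1d1 and Per3 were positive (4.19% of all genes were) and Cry1 was negative (5.63% were), each with an adjusted p of at least 0.46. These 3 members became 1 without WT mouse 6 and 0 with the replicate number as a block. Cry1 had r = -0.63 with Dbp, but a rho of only -0.27. With Nr1d1 as the reference 0 genes (0%) were called by limma and by edgeR. At an unadjusted p of at most 0.05, Dbp and Per3 were positive with Nr1d1 (3.06% of all genes were) and no member was negative (2.19% were). These 2 became 1 without WT mouse 6, WT mouse 2 or pKO mouse 2, and with the block, and 3 without WT mouse 5.

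All 45 pairs of members were then counted by sign, after the genes were grouped by their known phase as dawn genes (Arntl, Npas2, Clock, Cry1) and day genes (Per1, Per2, Per3, Nr1d1, Nr1d2, Dbp). Of the 24 pairs of a dawn gene with a day gene, 22 had a negative r, with a median of -0.28 and a range of -0.67 to 0.17. Of the 15 pairs of day genes 11 were positive (median 0.40), and of the 6 pairs of dawn genes 5 were positive (median 0.27). These pairs share genes and mice, are not independent, and were given no test. Without WT mouse 6 the negative dawn and day pairs numbered 16 of 24 (median -0.12), the positive day pairs 11 of 15 and the positive dawn pairs 3 of 6. Scaling by total tags in place of the deposited size factors also left fewer negative dawn and day pairs, 17 of 24.

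**Figure D3:**
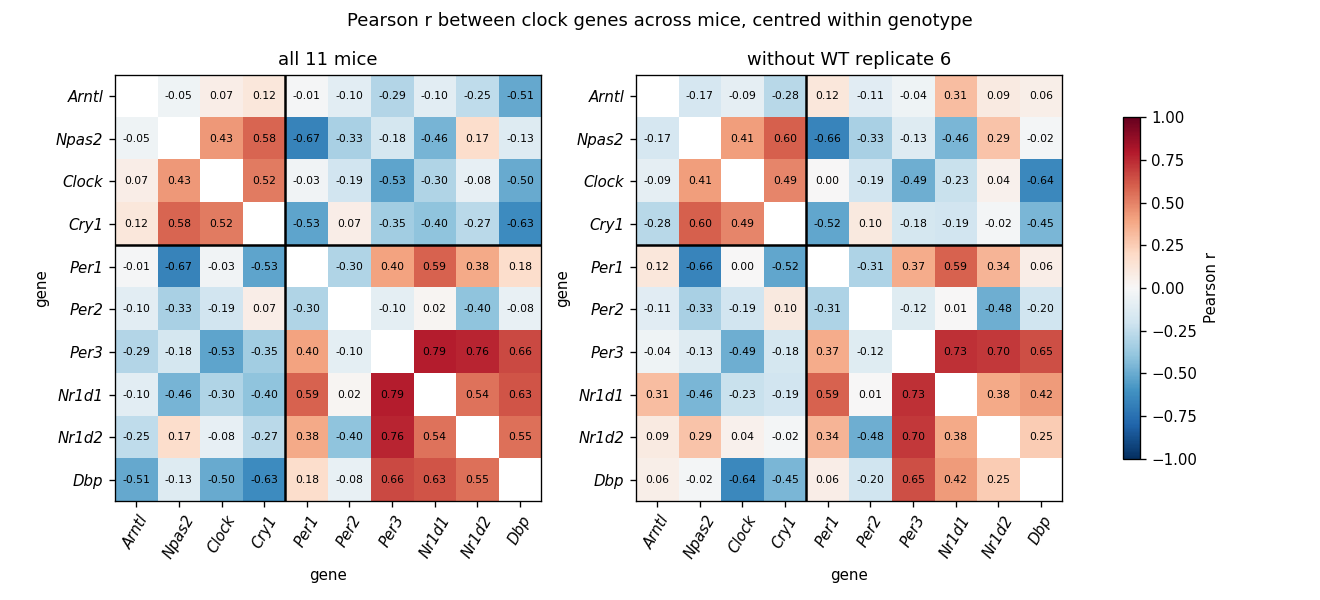
Pearson r of centred log2(value + 1) for each pair of clock genes, over all 11 mice on the left and without WT mouse 6 on the right, with dawn genes before and day genes after the black line. Red is positive and blue is negative on a scale from -1 to 1. The block of Per3, Nr1d1, Nr1d2 and Dbp is positive in both panels, and the Arntl row loses its negative values with the day genes Dbp, Nr1d1, Nr1d2 and Per1 in the right panel.

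Within the day genes, Per3, Nr1d1, Nr1d2 and Dbp formed 6 pairs that were positive with and without WT mouse 6, from 0.54 to 0.79 with it and from 0.25 to 0.73 without it. The pair of Nr1d2 and Dbp was at 0.55 with that mouse and 0.25 without it, and Nr1d1 and Nr1d2 were at 0.54 and 0.38, or at 0.29 without pKO mouse 2. Per1 was positive with Nr1d1 (0.59), Per3 (0.40), Nr1d2 (0.38) and Dbp (0.18). Per2 stood outside, with r of -0.40 with Nr1d2, -0.30 with Per1, -0.10 with Per3, -0.08 with Dbp and 0.02 with Nr1d1. Its 4 to 40 raw tags a mouse make it the least precise of the members. Among the dawn genes Npas2, Clock and Cry1 were positive with each other (0.43 to 0.58), while Arntl was near 0 with each of them.

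Seen mouse by mouse, WT mouse 6 had all 6 day genes above and all 4 dawn genes below the mean of its genotype, with the highest WT value in 4 of the day genes and the lowest WT value in Arntl and Cry1. The reverse was seen in pKO mouse 2, WT mouse 2 and WT mouse 4, each with 1 of the 6 day genes and 3 of the 4 dawn genes above the mean of its genotype. The lowest value of the genotype was found for 5 day genes in pKO mouse 2, for 3 in WT mouse 2 and for 2 in WT mouse 4. On the side of WT mouse 6, pKO mouse 4 had 5 day genes and 1 dawn gene above the mean of its genotype. It had the highest pKO value in 2 day genes and the lowest pKO Arntl (451). Some other mice did not follow this order. WT mouse 5 had all 4 dawn genes above the mean together with 2 of the 6 day genes, among them Nr1d1 at 431. In pKO mouse 1 Arntl (594) and Nr1d1 (610) were both the highest of their genotype.

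WT mouse 6 also had the fewest tags (9659740), the lowest summed adipocyte markers of the WT mice (661772) and the highest summed macrophage markers (3254). Of the pKO mice, mouse 2 had the fewest tags (11320342) and the highest summed adipocyte markers (1082910). The adipocyte sum was on average mostly Fabp4, which had r = -0.65 with Dbp. The other adipocyte markers ran from -0.09 (Plin1) to 0.38 (Adipoq) with Dbp. Over all mice, with genotype as a term in limma, 2 of 6 macrophage markers were negative with Arntl at an unadjusted p of at most 0.05 (Csf1r, r = -0.75, and Itgax, r = -0.64), and Csf1r was positive with Dbp (r = 0.68). The other macrophage markers did not reach it with Arntl, with Cd14 (r = 0.30) and Emr1 (0.04) positive and Lyz2 (-0.44) and Cd68 (-0.25) negative. Of the 5 endothelial markers Pecam1 was negative (r = -0.79) and Cdh5 positive (r = 0.73) with Arntl, and of the 5 lymphocyte markers Cd3g was negative (r = -0.77). Both listed epididymis markers, at 0 in some mice, were positive with Arntl (Adam7, r = 0.63, and Defb20, r = 0.59). No adipocyte marker passed with Arntl, Dbp or Nr1d1. The adjusted p-values in limma of the markers that passed were 0.58 with Arntl and 0.48 with Dbp. The part of these differences in the clock gene values was not tested.

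**Figure D4:**
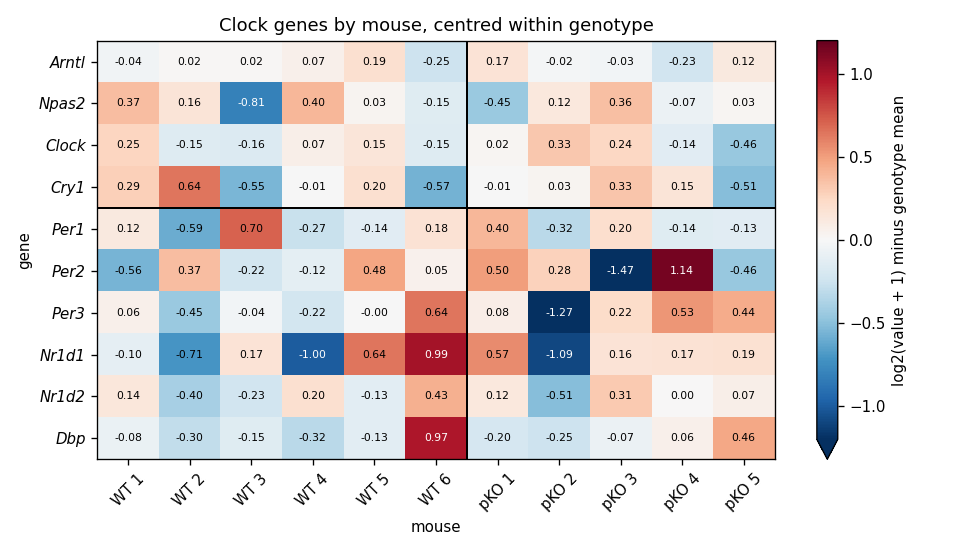
Log2(value + 1) of each clock gene minus its genotype mean, by mouse, with dawn genes above and day genes below the horizontal line and WT mice to the left of the vertical line. The scale ends at -1.2 and 1.2, so that Per2 in pKO mouse 3 and Per3 in pKO mouse 2 lie at or past its lower end. WT mouse 6 is blue for the dawn genes and red for the day genes, and pKO mouse 2 is blue for Per3, Nr1d1, Nr1d2, Dbp and Per1.

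Signals other than the hour of killing can move some of these genes, and lists for them were measured in the same mice. None of the 6 glucocorticoid targets, Per1 among them, reached an unadjusted p of 0.05 between genotypes in limma. Their sum lay between 3979 and 4289 normalized tags in WT and between 2710 and 4763 in pKO mice, where the lowest 2 were pKO mice 2 and 1. WT mouse 6 was at 4102, within the range of the other WT mice. Between genotypes 1 of the 8 fasting and feeding genes (Pck1) and 1 of the 8 immediate early genes (Egr1) were higher in pKO mice at that threshold, and 1 immediate early gene (Atf3) was lower. Among the fasting and feeding genes the lipase inhibitor Angptl4 was negative with Dbp (r = -0.83, adjusted p in limma = 0.35) and positive with Arntl (r = 0.67, adjusted p = 0.58). Pdk4, the pyruvate dehydrogenase kinase, was negative with Dbp (r = -0.73, adjusted p = 0.45) and with Nr1d1 (r = -0.72, adjusted p = 0.93). Acaca, which makes malonyl-CoA, was positive with Arntl (r = 0.70), and Pck1, the gluconeogenic enzyme, with Nr1d1 (r = 0.66). Of the immediate early genes Fos was negative with Arntl (r = -0.57), Ier2 positive with Dbp (r = 0.68) and Junb positive with Nr1d1 (r = 0.56), and of the glucocorticoid targets Klf9 was negative with Arntl (r = -0.64). These are all the genes of the 3 lists that reached an unadjusted p of 0.05, beside the shares of all genes given above, and none was called. Their part in the clock gene values was not tested.

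By likeness of pattern over the 11 mice, the 5 genes most positively correlated with Arntl after centring were 4930453N24Rik (r = 0.95), Fra10ac1 (0.93), Aff4 (0.93), Hps4 (0.92) and Ptk2 (0.92). The 5 most negative were Ccdc104 (-0.90), Rpl35 (-0.89), Abl1 (-0.87), D19Wsu162e (-0.87) and Zfp362 (-0.87). No clock gene was among them, and their permutation p-values adjusted over all genes were 0.48 and 0.51.

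The motifs through which the loop works were searched in the RefSeq promoters of GRCm38.p6, from 250 bases before to 50 after each start, on both strands. The table held 13 promoters for 9 of the members and 32851 promoters in all. The E-box CACGTG was found for 2 members, Per1 and Cry1 (7.15% of all promoters held it), and the related CACGTT for Cry1 and Nr1d1 (4.68%). The D-box, as TTATGTAA or TTACGTAA, was found for Per3 (1.06%), and the ROR element core, as TAGGTCA or TGGGTCA, for Arntl (6.45%). These letters overlapped none of the other motifs searched. The upstream parts of 3 of these promoters are shown, minus strand, because Per3 and Nr1d1 had the highest Pearson r of all pairs over 11 mice and Cry1 the most negative Pearson r with Dbp (by rho, Per3 and Dbp were closer and Arntl was more negative with Dbp), with each motif in capitals. They lie at chr4:151044666-151044915 (Per3), chr10:85185065-85185304 (Cry1) and chr11:98775378-98775627 (Nr1d1).
Per3: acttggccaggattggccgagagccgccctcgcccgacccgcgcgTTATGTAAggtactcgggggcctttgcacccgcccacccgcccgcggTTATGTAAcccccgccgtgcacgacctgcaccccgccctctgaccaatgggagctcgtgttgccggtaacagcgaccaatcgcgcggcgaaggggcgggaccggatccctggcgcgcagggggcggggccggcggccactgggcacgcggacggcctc
Cry1: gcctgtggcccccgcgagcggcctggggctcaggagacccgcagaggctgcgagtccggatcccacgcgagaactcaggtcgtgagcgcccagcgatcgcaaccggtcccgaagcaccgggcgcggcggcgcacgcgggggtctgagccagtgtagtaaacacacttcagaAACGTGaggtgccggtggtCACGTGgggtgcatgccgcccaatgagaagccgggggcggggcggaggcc
Nr1d1: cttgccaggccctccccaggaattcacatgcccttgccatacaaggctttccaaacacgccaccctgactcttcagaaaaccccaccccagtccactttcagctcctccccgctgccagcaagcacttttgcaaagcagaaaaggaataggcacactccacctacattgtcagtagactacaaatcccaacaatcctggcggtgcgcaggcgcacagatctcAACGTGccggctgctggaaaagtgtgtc
The Per3 stretch held the D-box TTATGTAA at positions -205 and -158 from the start, and the Cry1 stretch the E-box at -60 with AACGTG, the reverse complement of CACGTT, at -79. The Nr1d1 stretch held AACGTG at -28. A match is a description of these letters and not a measured binding site.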

How the data were processed

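Total RNA of epididymal adipose tissue from 6 WT and 5 pKO mice was made into NlaIII SAGE libraries by the authors and sequenced on a SOLiD instrument. They aligned the tags with a modified SOLiD SAGE software, and their processing notes name mm10 and edgeR 3.2.3. Each deposited signal value is the tag count of a gene over the size factor of its library: in every library 100% of values were whole multiples of a single step, which gave back whole tag counts, and the steps matched median-of-ratios size factors. No libraries agreed within sampling noise (lowest chi-square per degree of freedom 18.96). Precision covers counting error only.

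The 10 members, the gene lists and the phase groups were chosen with earlier results of these data known. log2(value + 1) of all 15453 genes was fitted with limma 3.58.1 (trend) in R 4.3.3, for genotype, and for genotype plus the log2 value of Arntl, Dbp or Nr1d1, with Benjamini-Hochberg adjustment. Genes were called where the adjusted p was 0.1 or less and either genotype averaged 50 or more. Differences are pKO minus WT. Adding 1 before the log2 shrinks the change of genes with few tags. For Per2 the change was -1.02, beside -1.06 with a pseudocount of 0.5. It was -0.84 with DESeq2 and with edgeR, so it was not understated against these. Correlations used genotype-centred values with exact two-sided permutation tests. The smallest p of the genotype permutation test is 0.0022. edgeR 4.0.16 called 5 genes between genotypes and DESeq2 1.42.0 called 121 on the recovered counts. Further alternatives were other scalings, pseudocounts of 0.5 and 10, a filter, a replicate block and leaving out mice. The fits and tests were tested on simulated data.

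The genes named were the members, the measured genes of the further clock list, listed genes past a threshold, Mest, and the 5 most positive and 5 most negative correlations with Arntl among genes averaging 50 or more in a genotype. Some genes of the further list are not reported here. WT and pKO mice share replicate numbers 1 to 5, and same-numbered mice deviated together with r of -0.09 to 0.14. Such values cannot exclude a pairing that leaves little shared deviation across genes. Nothing in the labels says that the numbers pair mice. The labels do not say whether the libraries were made in batches. Expected tags came from GENCODE M21 transcripts (the transcript marked principal) and promoters from RefSeq.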

Additional observations from a re-analysis of the deposited data

Results flagged for a closer look

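Both values marked as far from the rest of their group came from WT mouse 6. Dbp was at 740.6 normalized tags in that mouse and between 303 and 358 in the other 5 WT mice. Per3 was at 131.7 in that mouse and between 61.4 and 87.7 in the other WT mice. Per3 in pKO mouse 2, at 32.1 against 83.3 to 114 in the other pKO mice, was not marked. The marked values came from 2 of 20 groups examined (10 genes in 2 genotypes), of which about 1 in 20 is marked by chance. Without WT mouse 6, r of Dbp with Per3 was 0.65 and r of Arntl with Dbp was 0.058.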

How the results depend on the processing

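In all alternatives no member was called between genotypes or as associated with Arntl, Dbp or Nr1d1. The genes called between genotypes, 5 as reported, numbered 121 with DESeq2, 9 when a mean of 50 was required before adjustment, 1 with the replicate block, which drops WT mouse 6 as it has no pKO partner, and 3 to 91 when each mouse was left out, 91 of them without pKO mouse 2. The genes called as associated with Arntl, 0 as reported, numbered 21 with the replicate block. Those called with Dbp, 8 as reported, numbered 2 with edgeR, 4 with total-count scaling, which moved the median slope of all genes to 0.11, 1 with the replicate block, 193 without the 2 mice farthest from the Arntl median, and 2 to 92 when each mouse was left out, 92 of them without WT mouse 6. Arntl was the planned reference gene, and Dbp and Nr1d1 as reference genes were not in the plan. The alternatives applied to Dbp, to Nr1d1 and to the pair counts were chosen after seeing the data. The log2 difference of Arntl ran from 0.29 to 0.40 over all alternatives, with adjusted p-values of 0.21 to 0.66, and that of Per2 from -1.31 to -0.64. Leaving out each mouse gave 16 to 22 negative dawn and day pairs, 10 to 12 positive day pairs and 3 to 6 positive dawn pairs, and positive dawn pairs numbered 3 with Spearman rho and with total-count scaling. Values that turned sign follow. With DESeq2, the log2 difference between genotypes was -0.0171 for Cry1. With edgeR, the log2 difference between genotypes was -0.0219 for Cry1. With total-count scaling, the log2 difference between genotypes was -0.0114 for Cry1 and the correlation was -0.18 for Arntl and Clock, 0.0406 for Arntl and Per1, -0.12 for Arntl and Cry1, 0.000149 for Arntl and Nr1d1, 0.0137 for Arntl and Nr1d2 and 0.0112 for Dbp and Npas2. With the replicate block, the log2 difference between genotypes was 0.0357 for Per3, -0.0909 for Cry1, 0.0346 for Nr1d2 and 0.19 for Dbp. Without centring, the correlation was 0.43 for Arntl and Npas2, -0.27 for Arntl and Clock, 0.26 for Arntl and Nr1d1 and -0.24 for Nr1d1 and Per2. In WT mice alone, the correlation was 0.14 for Arntl and Npas2 and 0.34 for Arntl and Per2. By Spearman rho, the correlation was -0.0818 for Arntl and Clock, 0.21 for Arntl and Per2 and 0.10 for Arntl and Nr1d1. Without the 2 mice farthest from the Arntl median, the correlation was -0.36 for Arntl and Clock, 0.0219 for Arntl and Per1, 0.56 for Arntl and Per2, 0.37 for Arntl and Per3, -0.24 for Arntl and Cry1, 0.56 for Arntl and Nr1d1, 0.13 for Arntl and Nr1d2, 0.21 for Arntl and Dbp and -0.0705 for Nr1d1 and Per2. When each mouse was left out, the log2 difference ranged over -0.0909 to 0.15 for Cry1, -0.12 to 0.19 for Dbp, -0.13 to 0.0754 for Nr1d2 and -0.22 to 0.22 for Per3, and the correlation over -0.0902 to 0.38 for Arntl and Clock, -0.28 to 0.29 for Arntl and Cry1, -0.73 to 0.0577 for Arntl and Dbp, -0.17 to 0.16 for Arntl and Npas2, -0.31 to 0.31 for Arntl and Nr1d1, -0.37 to 0.0894 for Arntl and Nr1d2, -0.21 to 0.12 for Arntl and Per1, -0.25 to 0.35 for Arntl and Per2, -0.20 to 0.024 for Dbp and Per2 and -0.0665 to 0.13 for Nr1d1 and Per2. The other 179 genotype differences and 411 correlations kept their sign. Npas2 and Per2 gave no value under the filter, which removes them. The causes of these changes were not tested. With 11 mice sampled once, collection time and any mouse-to-mouse difference cannot be told apart. Counting error was largest for the members below 50 tags, Per2 and Npas2, and adds to their spread between mice.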
